A study of Mus musculus with 4 samples.

Results

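The cells described here are 79 of the 21140 cells in the deposited table of all sequenced cells from 4 mouse pancreata. A cell was taken when it was absent from the authors' table of typed cells, held 0 UMIs (unique molecular identifiers, each counting 1 captured transcript) of EYFP, and held at least 2 UMIs each of Chga and Chgb. Chga and Chgb encode chromogranins A and B, acidic proteins packed into the secretory granules of hormone-producing cells. The 79 cells, called member cells here, were among 7778 cells to which the authors' table gave no type. They numbered 10 and 17 in the 2 mice at 2 weeks and 26 in each of the 2 mice at 4 weeks. The cells were chosen by their EYFP, Chga and Chgb counts, so these values are given as a description and were not tested.

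The mice carried Ptf1aCre-ERTM;ROSAYFP/+ and were backcrossed into CD-1. In this model a Cre recombinase driven by Ptf1a, a transcription factor gene active in adult acinar cells, switches on EYFP after tamoxifen, so acinar cells and their descendants carry the label. All 4 mice received tamoxifen, then caerulein, a cholecystokinin receptor agonist that injures the pancreas, from 10 weeks of age for either 2 or 4 weeks, with 2 mice at each time. No mouse without caerulein was analysed here. EYFP+ cells were sorted by fluorescence and sequenced with 10x 3' v3.1 chemistry, so every member cell came from the EYFP+ sort, and 0 EYFP UMIs is a transcript count and not a reading of fluorescence. Each library is 1 mouse, and the p-values measure the spread between these 4 mice. The libraries held 4715 to 6255 cells and 72459531 to 103610807 UMIs.

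Endocrine cells store peptide hormones in granules, cut them from precursors with the convertases PC1/3 and PC2, and release them when calcium rises. The islets of the pancreas hold beta cells (insulin and amylin), alpha cells (glucagon), delta cells (somatostatin), PP cells (pancreatic polypeptide) and, rarely, epsilon cells (ghrelin). Enteroendocrine cells of the stomach and gut make several of the same hormones, and their enterochromaffin kind makes serotonin. The authors' type table labels 1208 of the EYFP+ cells EEC (enteroendocrine cell). Their finer table of tuft and EEC cells, which does not cover exactly the same cells, names 144 Delta, 217 ECL, 377 Epsilon, 140 Ppy+ and 391 EEC-Progenitor cells. The Delta, Epsilon and ECL names come with Sst, Ghrl and Tac1 as their marker genes. Members were set beside the EEC-labelled cells and beside all 687 cells that met the same Chga and Chgb rule but held at least 1 EYFP UMI.

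The member cells carried endocrine genes outside the rule, but insulin and glucagon, the hormones of islet beta and alpha cells, were at or near 0 in all but 2 of them. Neurod1, a transcription factor of endocrine differentiation, was detected in 57 of 79 member cells, against 10 of 2007 immune cells without a type. Neurod1 levels per mouse were 444, 524, 326 and 289 CPM (a gene's UMIs over all UMIs of the cells of a mouse, on the usual scale, so that deep cells weigh more), in the order of 2-week mice 1 and 2 and 4-week mice 1 and 2, which is used for every such set of 4 values. Pax6, another endocrine transcription factor, stood at 600.2, 362, 418 and 294 CPM in member cells and at 0.976 to 1.95 CPM in the immune cells. Immune cells are cells with 0 EYFP UMIs and at least 1 UMI each of Ptprc and Laptm5, and they show what free RNA adds to a cell that should lack a gene. Of the 4 genes given as markers, Chga and Chgb were in every member cell by the rule, Iapp (amylin) in 26 (32.9%) and Ppy (pancreatic polypeptide) in 17 (21.5%). The shares of immune cells with a UMI were 1.10% for Iapp and 6.73% for Ppy at a median of 5814 UMIs, and those of Acinar-labelled cells 2.95% and 16.7% at 27362 UMIs. Thinned to 1500 UMIs, Iapp was in 31.1% and Ppy in 14.9% of member cells, against 0.303% and 1.56% of immune cells.

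More than 2 insulin UMIs were found in 2 of the 79 member cells, both from 4-week mouse 2. These cells held 79467 and 37736 UMIs. Together they carried 77385 of the 77391 Ins1 and Ins2 UMIs found in all member cells, and insulin made up 66.0% of their transcripts. The first held 18744 Ins1 and 34352 Ins2 UMIs, and the other 6408 and 17881. Both also held genes of mature beta cells: Mafa, an insulin gene activator (14 and 15 UMIs), Slc2a2, the glucose transporter GLUT2 (9 and 23), G6pc2, a beta cell glucose-6-phosphatase (40 and 13), and Ucn3, urocortin 3 (12 and 21). Ucn3 was not particular to the insulin cells. A cell of 2-week mouse 1 (9557 UMIs) held 13 Ucn3 UMIs, and a cell of 4-week mouse 1 (6397 UMIs) held 14. Neither held insulin, Mafa, Slc2a2 or G6pc2, and both held Tph1, Slc18a1 and Penk, genes taken up below. Among the other member cells the highest insulin count was 2 UMIs, and 72 of the 79 had none. In 4-week mouse 2, member cells held 221304 UMIs with the 2 insulin cells and 104101 without them. Member CPM of genes that the insulin cells lacked are therefore lower in that mouse with them counted. Glucagon (Gcg) was found as 1 UMI in 1 of the 79 member cells, and 15 of the 1208 EEC-labelled cells held at least 10 Gcg UMIs. Thinned to 1500 UMIs, Gcg was in 0 of 74 member cells (exact binomial 95% interval 0 to 4.86%). Among EEC-labelled cells it was in 17 of 1205 (1.41%, 0.824 to 2.25), so the intervals overlapped. A single EEC-labelled cell, from 2-week mouse 2, held 43056 insulin UMIs, so insulin cells occurred on both sides of the EYFP count.

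Depth moved with the EYFP count. Member cells had a median of 5187 UMIs (range 1017 to 79467), against 13867 in the 687 EYFP-positive cells of the same rule and 12560 in EEC-labelled cells. The share of rule cells with 0 EYFP UMIs was 34 of 64 (53.1%, exact binomial 95% interval 40.2 to 65.7) from 1000 to under 5000 UMIs and 29 of 169 (17.2%, 11.8 to 23.7) from 5000 to under 10000. It was 13 of 337 (3.86%, 2.07 to 6.51) from 10000 to under 20000 UMIs and 3 of 196 (1.53%, 0.317 to 4.41) from 20000 UMIs. All intervals cover counting error only.

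**Figure D1:**
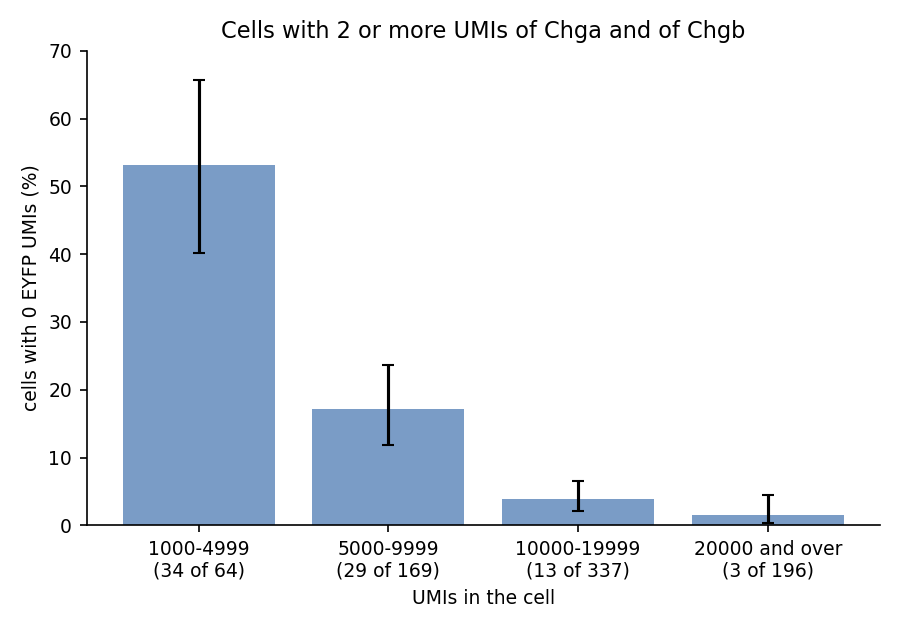
Share of cells of the Chga and Chgb rule that held 0 EYFP UMIs (y axis, percent) by the cell's total UMIs (x axis), with exact binomial 95% intervals. The share falls from 53.1% in the shallowest class to 1.53% in the deepest.

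EEC-labelled cells all held at least 1 EYFP UMI, with a median of 4. When each was thinned at random to 5000 UMIs, 203 of 1149 (17.7%, 15.5 to 20.0) had 0 EYFP UMIs. Thinned to 1500 UMIs, 683 of 1205 (56.7%) did. Of the member cells, 16 held at least 10000 UMIs (4, 4, 5 and 3 per mouse) and 3 held at least 20000: the 2 insulin cells and a Ghrl cell of 4-week mouse 1. How many member cells lacked the label was not tested.

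Sums over the cells on either side of the threshold differed in genes outside the rule too. The 65 cells just outside it, with 1 UMI of the scarcer chromogranin, had a median of 2499 UMIs and 466 CPM of Chga. The 12 cells just inside, with 2 UMIs, had a median of 2667 UMIs and 797 CPM of Chga. The 48 cells with at least 5 UMIs stood at 5594 CPM of Chga and 14408 CPM of Chgb. Pcsk1n, a granule protein that binds the convertase PC1/3, stood at 137 CPM just outside and 1116 CPM just inside, and at 786 CPM in the 19 cells with 3 or 4 UMIs. Sst stood at 7817 CPM just outside and 23795 CPM just inside. The value just inside came from a cell of 2-week mouse 2 (1274 Sst UMIs) and a cell of 4-week mouse 1 (219), so it describes single cells.

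At 2 weeks, member cells made up 0.212% (0.102 to 0.390) of the cells of mouse 1 and 0.323% (0.188 to 0.516) of mouse 2. At 4 weeks the shares were 0.530% (0.347 to 0.776) for mouse 1 and 0.416% (0.272 to 0.608) for mouse 2. The means were 0.267% ± 0.0782 and 0.473% ± 0.0811 (SD, n = 2). Both 4-week mice lay above both 2-week mice, a difference of 0.206 percentage points. The two-sided exact permutation p was 0.333, the smallest that 2 mice against 2 can give.

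Over the 4 mice together, somatostatin cells were the most frequent hormone class. Each cell was given the hormone with most UMIs, if that hormone had at least 10. Sst, the hormone of delta cells and gastric D cells, led 16 of 79 member cells (20.3%, 12.0 to 30.8), with 3, 6, 4 and 3 cells per mouse. Pyy (peptide YY) led 8, Gast (gastrin) 5, Ghrl (ghrelin) 5, Gip (glucose-dependent insulinotropic peptide) 4, Ppy 3 and insulin 2. Sst tied with Gip in 2-week mouse 1 (3 cells each) and with Gast in 4-week mouse 1 (4 cells each). No hormone reached 10 UMIs in 36 cells (45.6%, 34.3 to 57.2), with 3, 6, 14 and 13 per mouse. In immune cells 98.7% had no leading hormone by this measure.

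Among the 570 EEC-labelled cells that met the same Chga and Chgb rule the order differed: Ghrl led 130 (22.8%), Pyy 98 (17.2%), Sst 83 (14.6%) and no hormone 130 (22.8%). With every cell thinned to 1500 UMIs, Sst led 16 of 74 member cells (21.6%, 12.9 to 32.7) and 79 of 569 such EEC cells (13.9%, 11.1 to 17.0). Ghrl led 4 of 74 (5.41%, 1.49 to 13.3) against 129 of 569 (22.7%, 19.3 to 26.3), and no hormone led 35 of 74 (47.3%, 35.6 to 59.3) against 191 of 569 (33.6%, 29.7 to 37.6). The thinning left out 5 member cells and 1 EEC cell that were shallower. For thinned shares, here and below, cells met the rule at full depth, so thinning does not even out how depth chose them. These are shares of cells pooled over mice, given as a description with no test. Unthinned and per mouse, Ghrl led 0, 5.88, 7.69 and 7.69% of member cells against 34.2, 11.3, 24.8 and 21.01% of the EEC cells of the rule, lower in each mouse. Sst led 30.0, 35.3, 15.4 and 11.5% against 15.1, 19.9, 8.53 and 13.8%, higher in 3 of 4 mice.

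**Figure D2:**
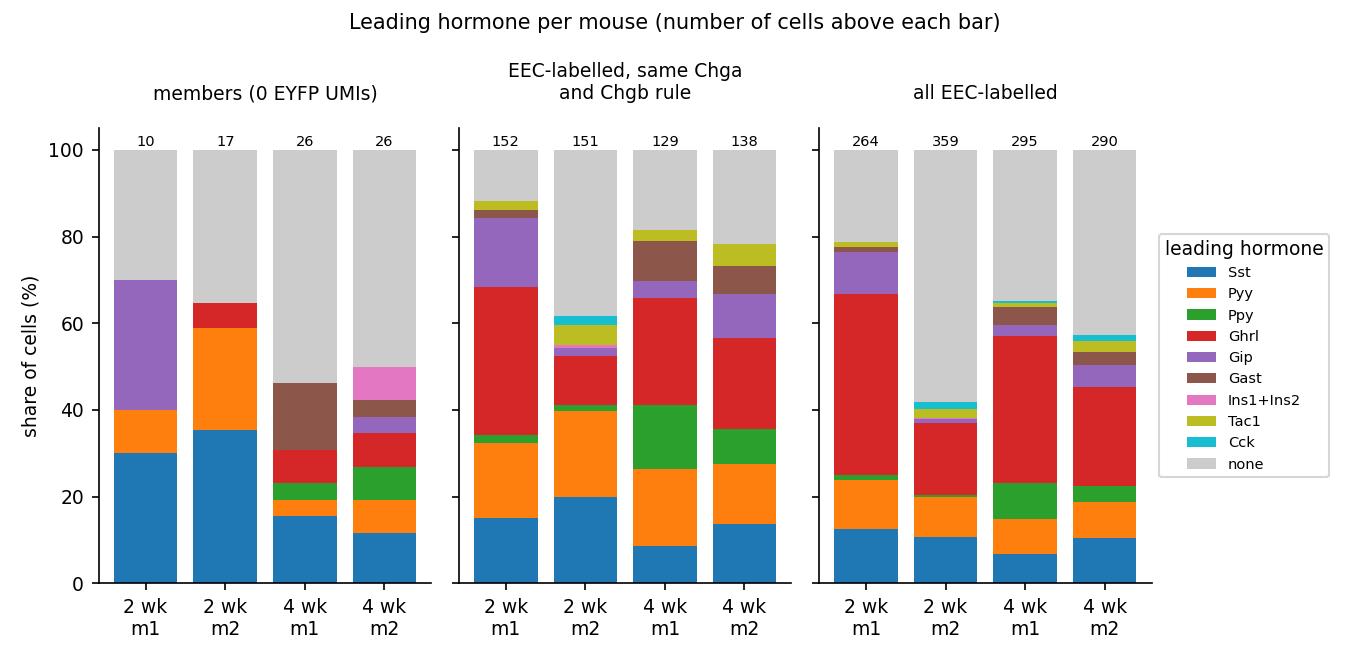
Share of cells (y axis, percent) by leading hormone in each mouse (x axis, 1 stacked bar per mouse with its number of cells above), for member cells, EEC-labelled cells of the same Chga and Chgb rule and all EEC-labelled cells. Over the 4 mice Sst leads 20.3% of member cells and Ghrl 6.33%, while Ghrl leads 27.8% of all EEC-labelled cells.

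Within the member cells, the classes carried different companion genes. The 16 Sst cells held 116979 CPM of Sst, and Hhex, a transcription factor of delta cells, was in 15 of them at 1147 CPM. Isl1, an islet and enteroendocrine transcription factor, was in 15 of the 16 at 1184 CPM. Pyy was in 14 of these cells, and in 13 it reached 10 UMIs. In the 83 EEC-labelled Sst cells of the same rule Hhex was in 82 at 1565 CPM, Isl1 in 83 at 1587 CPM and Pyy in 74. Those cells held more Ghrl (6337 CPM against 803 CPM in the member Sst cells) and Mboat4 (in 60 of 83 cells against 5 of 16), and less Ppy (517 CPM against 3711 CPM). Ppy was in 12 of the 83 and in 5 of the 16 cells, and 417 of the 605 member Ppy UMIs came from a single cell.

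The 9 Gast or Gip cells held 6097 CPM of Cartpt, the precursor of the CART peptide, in 8 of 9 cells. Pax6 reached 1211 CPM there and Isl1 was in 1 of 9. The 5 Ghrl cells all held Isl1 and Mboat4, the enzyme that adds the acyl group to ghrelin, and their Ttr (transthyretin) stood at 2154 CPM. The 11 Ppy or Pyy cells held 57901 CPM of Ppy, 61130 CPM of Pyy and 9222 CPM of Ghrl. Ppy was in 6 of the 11 and Ghrl in 9, and 163, 153 and 134 of the 477 Ghrl UMIs came from single cells. At least 2 hormones reached 10 UMIs in 25 member cells (31.6%). The same held for 260 of 570 EEC-labelled cells of the rule (45.6%) and 327 of all 1208 EEC-labelled cells (27.1%). Sst with Pyy was the commonest pair with 15 member cells (19.0%), against 82 of the 570 (14.4%). Depth was not evened out in these shares. No doublet caller was run; no member cell shared its barcode with a cell of another library, although 67 barcodes occurred in at least 2 libraries.

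**Figure D3:**
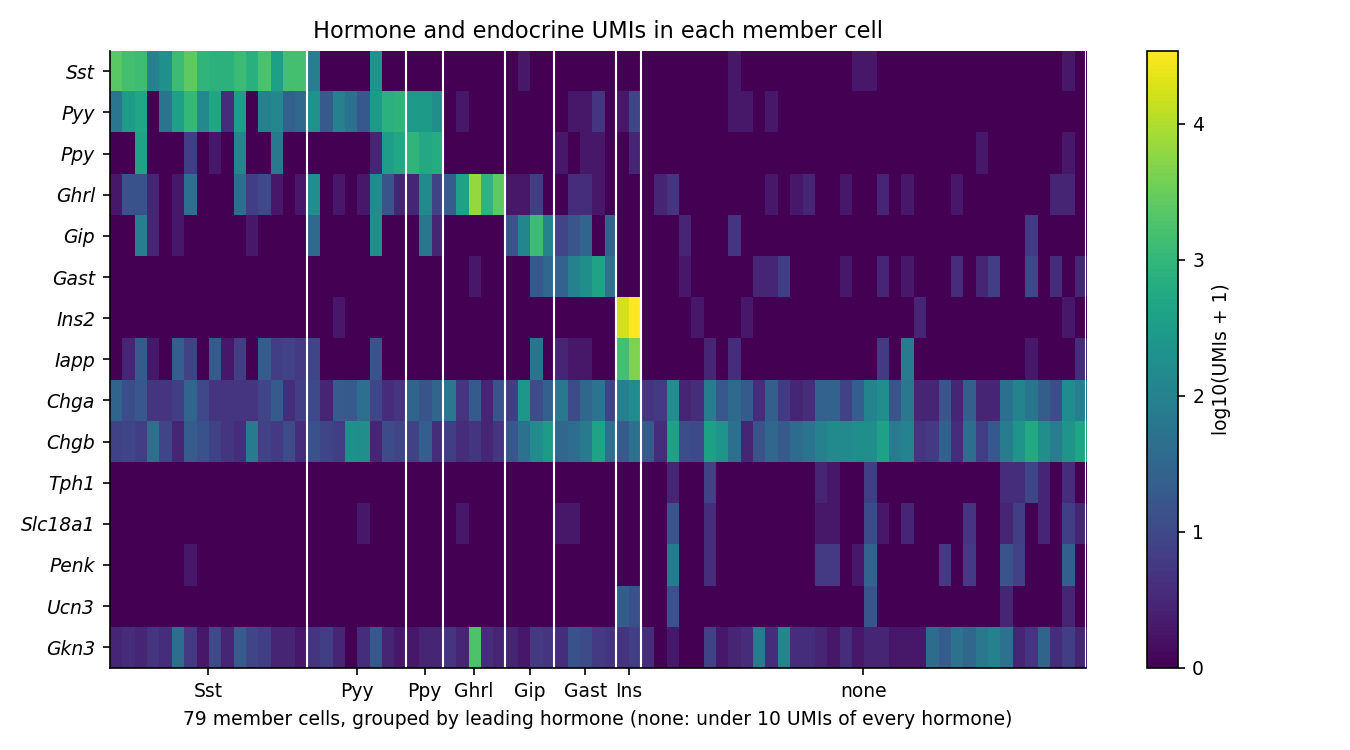
UMIs (colour, log10 of UMIs + 1) of hormone, granule, amine and mucous genes (y axis) in each of the 79 member cells (x axis), grouped by leading hormone. Ins2 is high in 2 cells, the 16 Sst cells also hold Pyy for the most part, and Tph1 and Slc18a1 lie mainly among the cells without a leading hormone.

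The 36 cells without a leading hormone held the chromogranins at 7394 CPM (Chga) and 24759 CPM (Chgb). In 14 of them at least 1 UMI was found of Tph1, the enzyme that starts serotonin synthesis outside the brain, or of Slc18a1, the vesicular monoamine transporter VMAT1. These 14 cells were spread as 1, 1, 5 and 7 over the mice. The share was 14 of 36 (38.9%, 23.1 to 56.5), against 4 of 43 (9.30%) in member cells led by a hormone and 6 of 2007 (0.299%) in immune cells. In hormone-less EEC-labelled cells of the same rule it was 32 of 130 (24.6%, 17.5 to 32.9).

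Genes of serotonin cells that are not specific to them were counted in the same 36 cells. Ddc, the decarboxylase that completes serotonin, was in 27, Fev, a transcription factor of serotonin cells, in 22, and Lmx1a, a transcription factor of enterochromaffin cells, in 8. The same genes were in 110 (84.6%), 108 (83.1%) and 34 (26.2%) of the 130 hormone-less EEC-labelled cells of the rule. Those cells were deeper, with a median of 10352 UMIs against 4411 in the 36. As CPM, Ddc stood at 695 in the 36 and 545 in the 130 cells, Fev at 381 and 389, and Lmx1a at 82.8 and 42.5. Fev was also in 7 of the 9 Gast or Gip member cells, and Ddc stood at 657 CPM in the Ppy or Pyy member cells. Penk, the enkephalin precursor, gave 162 UMIs in 11 cells, 9 of which also held Tph1 or Slc18a1. Of the 36 cells, 9 carried over 5% of their UMIs from genes of SPEM (spasmolytic polypeptide-expressing metaplasia, a mucous state of injured epithelium) and mucins. Some of these also held Tph1, Slc18a1 or Penk. The 9 lay in the 4-week mice (2 and 7), had a median of 1835 UMIs and a median of 17 Chgb UMIs. A further cell of 4-week mouse 1 held 155 UMIs of endothelial genes. The part of other cells' RNA in these 10 cells was not tested.

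Levels per mouse showed the same hormones. Sst stood at 63856, 43324, 24198 and 15607 CPM in member cells and at 14304, 8111, 5381 and 8548 CPM in EEC-labelled cells, with 10.1 to 51.9 CPM in immune cells. Every member value lay above every EEC value. Ghrl stood at 2449, 509.7, 36601 and 16267 CPM against 96567, 13866, 126880 and 56494 CPM, lower in member cells within each mouse, though the ranges overlapped. Without its deepest Ghrl cell (37422 UMIs, 6556 of them Ghrl), 4-week mouse 1 came to 3914 CPM of Ghrl.

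Pyy was at 12519, 16377, 5278 and 10754 CPM in member cells, against 18971, 11568, 19595 and 20527 CPM, and was higher in 1 mouse. Ppy was at 5005, 51.7, 5334 and 9656 CPM against 4902, 4187, 20756 and 14108 CPM. Iapp reached 27781 CPM in 4-week mouse 2, where it was 211 CPM without the 2 insulin cells. The other 3 mice had 984, 391.5 and 637 CPM of Iapp in member cells and 194, 709 and 219 CPM in EEC-labelled cells. These sets overlapped for Pyy, Ppy and Iapp. Gip stood at 18893, 66.5, 1188 and 895 CPM in member cells, with the highest value in 2-week mouse 1, which had 3 of the 4 Gip cells. Gast stood at 192, 7.39, 3723 and 493 CPM against 203, 3.55, 1874 and 388 CPM, so that the mice took the same order in both sets of cells.

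**Figure D4:**
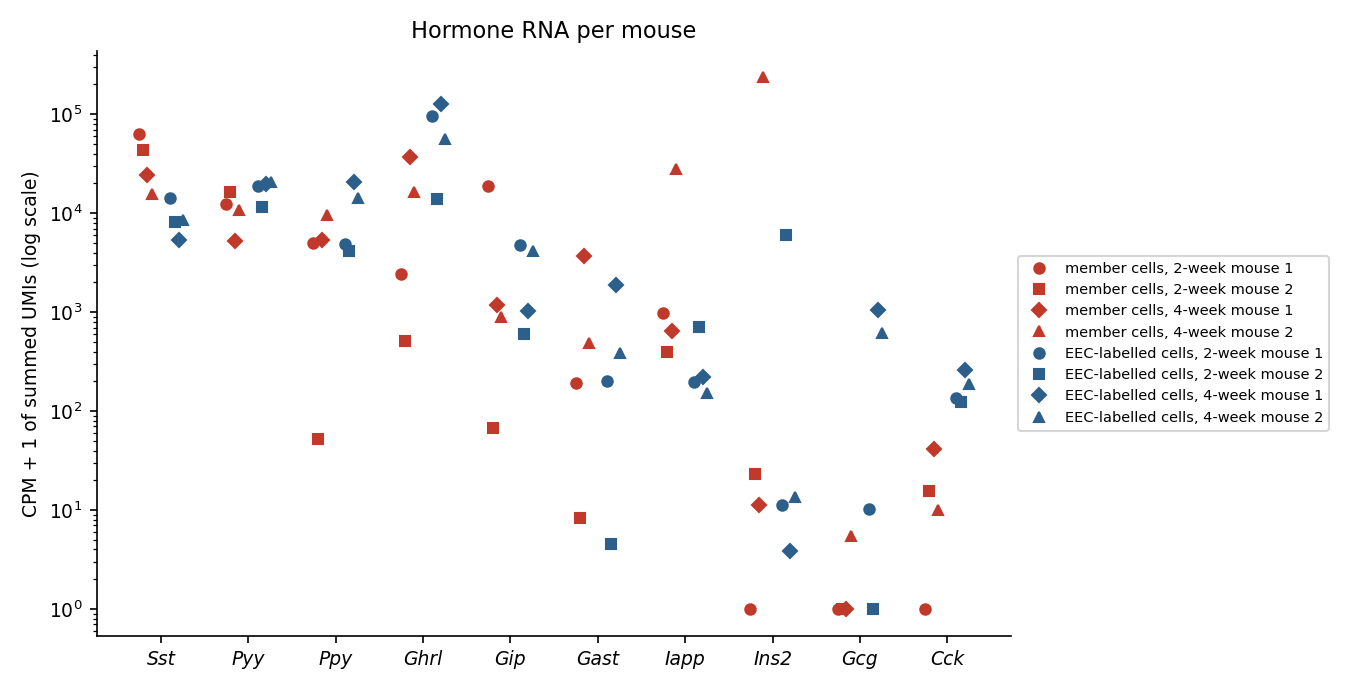
Level of each hormone gene (y axis, CPM + 1, log scale) per mouse in member cells (red) and EEC-labelled cells (blue), 1 point per mouse. The 4 member points for Sst lie above all 4 EEC points, those for Cck lie below, and the other genes overlap.

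Progenitor transcripts were scarce among member cells. Neurog3, the factor that starts endocrine differentiation, was in 4 of 79 member cells (36.0, 7.39, 286 and 0 CPM) and in 451 of 1208 EEC-labelled cells (518, 1161, 638 and 799 CPM), where 333 of the 391 EEC-Progenitor cells held it. In EEC-labelled cells that met the Chga and Chgb rule, Neurog3 was in 72 of 570. Thinned to 1500 UMIs, Neurog3 was in 5.41% of member cells and 6.33% of those EEC cells.

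The test across genes set member cells against the 687 EYFP-positive cells of the same Chga and Chgb rule, by sums per mouse with mouse as a block. Of 9815 genes, 158 (1.61%) passed an edgeR adjusted p of 0.05, 51 (0.52%) higher and 107 (1.09%) lower in member cells. Serotonin and monoamine genes were among the higher genes and acinar enzymes among the lower ones, while none of 13 endocrine transcription factors tested passed. With bias-adjusted deviances, a setting of edgeR for small counts chosen after seeing the data, 41 genes passed (8 higher, 33 lower), and DESeq2 called 73 (20 higher, 53 lower). A mouse entered a fit only with at least 10 cells on both sides, so narrower sets of cells lost mice as well as UMIs. With cells under 10000 UMIs on both sides, 3 of 3625 genes passed in the 3 mice other than 2-week mouse 1. In the same 3 mice 13 of 7761 passed without cells holding at least 2 UMIs of immune, endothelial, fibroblast, Schwann or pericyte markers (26 of the 79 member cells). Of the 687 positive cells, 570 were EEC-labelled, 40 had no type and the rest had other types, among them 25 Acinar/MucinDuctal, 16 MucinDuctal, 15 Acinar and 11 Tuft cells. In the sums tested, deep cells weigh more. The EEC-labelled cells gave 8388838 of the 13327898 UMIs of the positive cells, and the 40 cells without a type gave 1477906.

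Among the amine genes, 2 of 4 tested were higher and none lower (median log2 difference 1.95, against -0.03 over all genes). Slc18a1 was at 168, 29.5, 86.7 and 99.4 CPM in member cells and 6.95, 10.9, 12.9 and 19.6 CPM in positive cells, with no overlap (log2 difference 2.73 ± 0.35 SE, adjusted p = 1.159e-06). Tph1 was at 24.0, 51.7, 45.9 and 85.9 CPM against 6.95, 10.9, 5.86 and 11.1 CPM, again without overlap (2.58 ± 0.40 SE, adjusted p = 2.245e-05). Few cells carry these sums: in 2-week mouse 1 all 14 Slc18a1 and 2 Tph1 UMIs came from 1 member cell, and in 2-week mouse 2 the 4 and 7 UMIs came from 2. Lmx1a was higher in each mouse but did not pass (log2 difference 1.90, adjusted p = 0.0680). Both calls were kept with bias-adjusted deviances and lost among cells under 10000 UMIs (3 mice), where Slc18a1 gave 1.23 (adjusted p = 0.354) and Tph1 1.37 (adjusted p = 0.470).

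The authors' ECL cells carried these genes too, with Tph1 at 33.5 to 47.9 CPM and Slc18a1 at 39.6 to 76.3 CPM. Tph1 was found in 29 of 217 ECL cells, in 1 of 144 Delta cells and in 2 of 377 Epsilon cells. Thinned to 1500 UMIs, Slc18a1 was in 10 of 74 member cells (13.5%, 6.68 to 23.5), in 14 of 569 EEC cells of the rule (2.46%, 1.35 to 4.09) and in 0 of 1981 immune cells. Unthinned, the Slc18a1 shares were 21.5%, 10.5% and 0.199%. The cells had met the Chga and Chgb rule at full depth, with medians of 5187 UMIs in member and 13063 in these EEC cells. Once thinned, 4, 8, 17 and 14 of the 8, 17, 26 and 23 member cells per mouse still met it. Among EYFP-positive cells 48, 59, 51 and 52 of 171, 207, 146 and 162 did. The part of this choice of cells in the Slc18a1 shares was not tested. In GRCm38, Slc18a1 lies on chromosome 8 (69037711 to 69089235, minus strand), Tph1 on chromosome 7 (46644641 to 46672537, minus strand) and Sst on chromosome 16 (23889573 to 23890958, minus strand).

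Of 6 islet hormones tested, Sst alone passed, higher in member cells (median log2 difference of the 6, -0.71). Positive cells had 12992, 7458, 7284 and 10595 CPM of Sst, all below the member values (1.66 ± 0.20 SE, adjusted p = 0.00112, higher in 4 of 4 mice). The exact paired permutation test of the Sst difference gave p = 0.125, the smallest that 4 mice can give. The Sst call was lost with bias-adjusted deviances (adjusted p = 0.145), and the sign turned with at least 5 UMIs of each chromogranin (log2 difference -0.28) and with the rule applied after thinning (-2.05), fits that held only the 2 mice at 4 weeks. The cause was not tested. Ghrl (-3.36, adjusted p = 0.363), Ppy (-2.28, adjusted p = 0.658) and Pyy (-1.26, adjusted p = 0.563) did not pass.

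Frzb and Npnt were higher in member cells, while other genes frequent in the Sst cells did not pass, among them Hhex (log2 difference 0.44, adjusted p = 0.298), Isl1 (-0.47, adjusted p = 0.233) and Rbp4, retinol-binding protein (-0.44, adjusted p = 0.116). Frzb, a secreted Wnt inhibitor, was at 48.0, 22.2, 20.4 and 27.1 CPM in member cells against 0.782 to 2.27 CPM (3.86 ± 0.61 SE, adjusted p = 3.711e-05). These are 17 Frzb UMIs in 11 of 79 member cells, and 9 of them came from 7 of the 16 Sst cells and 6 from the 2 insulin cells. Without the insulin cells Frzb was at 0 in 4-week mouse 2 and too low to be tested. In the authors' tables Frzb was in 19 of 1208 EEC-labelled cells, 18 of 144 Delta cells, 0 of 217 ECL cells and 0 of 377 Epsilon cells. Npnt, nephronectin of the extracellular matrix, was at 120.0, 66.5, 76.5 and 27.1 CPM against 12.5 to 20.8 CPM (1.81 ± 0.34 SE, adjusted p = 0.000578), and 12 of the 16 Sst member cells held it. Npnt lost its call among cells under 10000 UMIs (log2 difference 0.45, 3 mice).

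Cartpt was higher in 4 of 4 mice (1.53 ± 0.19 SE, adjusted p = 1.269e-07), at 456, 29.5, 1581 and 380 CPM. The beta cell and enterochromaffin transcription factor Nkx6-1 passed too (2.06 ± 0.34 SE, adjusted p = 7.989e-05), at 0, 111, 40.8 and 104 CPM, higher in 3 of 4 mice. The 2 insulin cells held 16 of the 23 Nkx6-1 UMIs of 4-week mouse 2, which came to 67.2 CPM without them (log2 difference 1.64, adjusted p = 0.0159). Nkx6-1 was in 10 of the 36 member cells without a leading hormone (27.8%), in 52 of 130 such EEC-labelled cells of the rule (40.0%), and in 78 of 217 ECL cells against 1 of 144 Delta cells. The 36 and the 130 cells had medians of 4411 and 10352 UMIs, so their shares are not at like depth. Of 11 granin and processing genes tested, Scg3, which helps sort granins into granules, was higher (0.85 ± 0.21 SE, adjusted p = 0.0464) and none was lower. Of 10 exocytosis genes, Syt7 and Syt13, synaptotagmins of granule release, were higher, and none was lower. These 3 calls were lost with bias-adjusted deviances and without the mouse block, and held in 8 (Scg3), 8 (Syt7) and 9 (Syt13) of 21 alternatives.

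Among 5 gut peptides tested, 2 were lower and none was higher. Cck, cholecystokinin of I cells, was at 0, 14.8, 40.8 and 9.04 CPM in member cells against 130, 134, 362 and 123 CPM, without overlap (-3.63 ± 0.32 SE, adjusted p = 1.086e-11). The share of cells with a Cck UMI, thinned to 1500 UMIs, was 5 of 74 member cells (6.76%, 2.23 to 15.1) and 51 of 686 positive cells (7.43%, 5.59 to 9.66), against 7.59% and 18.2% unthinned. Tac1, the substance P precursor, was at 48.0, 36.9, 76.5 and 104 CPM against 97.3 to 221 CPM (-0.96 ± 0.24 SE, adjusted p = 0.0219). The Tac1 call held in 7 of 21 alternatives, and against EEC-labelled cells, at 73.3, 61.4, 66.8 and 153 CPM, Tac1 was higher in 1 mouse. Mboat4, the ghrelin-acylating enzyme, was lower in 4 of 4 mice (-1.35 ± 0.30 SE, adjusted p = 0.00763), a call that held in 9 of 18 alternatives.

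Markers of other cell types moved with the contrast. Of 14 acinar enzymes, 10 were lower in member cells and none was higher (median log2 difference -1.52). Cpb1 (-1.92 ± 0.16 SE) and Try5 (-2.46 ± 0.15 SE), a carboxypeptidase and a trypsinogen, were among them. Against EEC-labelled cells the mean log2 difference within mice was -0.12 ± 0.16 for Cpb1 and -0.07 ± 0.38 for Try5 (SD, n = 4, log2 of CPM + 10). The enzyme sum was 23886, 51583, 19002 and 14609 CPM in member cells, 76125, 72190, 32044 and 62132 CPM in positive cells, 13244 to 21162 CPM in EEC-labelled cells, and 12011 to 23761 CPM in immune cells. Cpb1 and Try5 turned sign when cells with over 5% of UMIs from acinar enzyme or SPEM genes were left out on both sides, which also left out 2-week mouse 1 (log2 differences 0.79 and 0.75). Both genes are in the enzyme list by which cells were left out, so this filter acts on their own counts.

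Of the other lists, 2 of 9 SPEM and mucin genes (Dmbt1 and Muc1), 3 of 6 Reg genes and 1 of 3 tuft genes (Dclk1) were lower and none was higher. Rgs13 (-4.42 ± 0.53 SE) and Ltc4s (-3.16), outside the lists, were also lower; 11 positive cells are typed Tuft. Against EEC-labelled cells the mean log2 differences were -0.30 (Rgs13), -0.46 (Ltc4s), 0.08 (Dmbt1) and -0.46 (Reg3b), each with mice on both sides of 0. Higher were 1 of 6 beta genes (Nkx6-1) and 2 of 10 MHC and interferon genes (Isg15 and Irf7). Isg15 and Irf7 lay highest in 2-week mouse 1 on both sides and in its immune cells, were higher in member cells in 2 and 3 of 4 mice, and held their calls in 7 of 13 and 4 of 11 alternatives. No tested gene passed in the lists of delta (2 of 4 genes tested), excitability (8 of 9), acinar transcription factor (5 of 5), ductal (7 of 8), ER stress (9 of 10) and immediate early genes (10 of 10). The same held for proliferation (2 of 8), immune (4 of 12), endothelial (1 of 6), fibroblast (3 of 8), Schwann (1 of 5) and pericyte genes (1 of 5), most of which were too low to test. Immune markers summed to 36.1 to 120 CPM in member cells, against 17334 to 20979 CPM in the immune cells. The part of these markers in the contrast was not tested beyond the sets of cells given above.

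**Figure D5:**
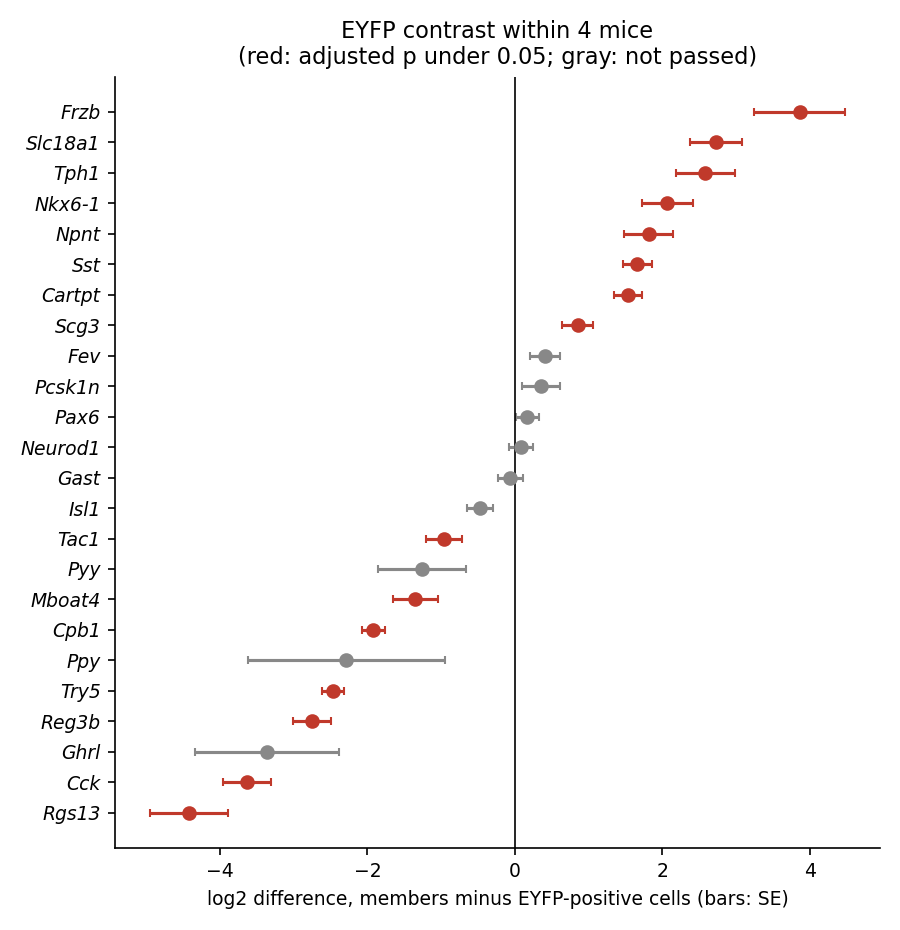
Log2 difference between member cells and EYFP-positive cells of the same rule for named genes, with standard errors, red where the adjusted p was under 0.05. Slc18a1, Tph1, Frzb and Sst lie to the right of 0, and Cck, Mboat4 and the acinar enzymes to the left.

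Between 2 and 4 weeks no gene passed within member cells (0 of 2768, 0%, with 2 mice a group; 119 at an unadjusted p of 0.05). Without the 2 insulin cells 2 of 2178 genes passed (0.0918%), Muc6 and the pepsinogen gene Pga5. DESeq2 called 5 (0.181%), among them Ghrl and the gastric mucous genes Muc6 and Gkn3. Ghrl stood at 2449 and 509.7 CPM at 2 weeks and at 36601 and 16267 CPM at 4 weeks. Muc6, a gland mucin, stood at 36.0 and 59.1 CPM and at 918 and 226 CPM. In both, every 4-week value lay above every 2-week value. Without the deepest Ghrl cell, 4-week mouse 1 came to 3914 CPM of Ghrl, 359 CPM of Muc6 and 1834 CPM of Gkn3 (from 11077). In the same mice Sst was lower at 4 weeks, without overlap (log2 difference -1.05, adjusted p = 0.553). The 2 insulin cells held 0 Sst UMIs, and 4-week mouse 2 had 221304 member UMIs with them and 104101 without. Its Sst CPM is therefore lower with them counted. The SPEM and mucin sum was 1536 and 2164 CPM at 2 weeks and 25213 and 5020.2 CPM at 4 weeks. The test of whether the member against EYFP-positive difference changed between 2 and 4 weeks called 32 of 11121 genes (0.288%), against 3 (0.027%) with DESeq2 and 2, Ins1 and Ins2, with bias-adjusted deviances. The part of the SPEM genes in the Ghrl values was not tested, and the deepest Ghrl cell, of 4-week mouse 1, held 3298 SPEM and mucin UMIs, 8.81% of its own.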

How the data were processed

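Single-cell RNA was measured in EYFP+ sorted pancreas cells of 4 mice, 2 at each time. The authors deposited unnormalized UMI counts for each gene in each cell, and tables of cell type names; Cell Ranger 4.0.0, Seurat 3.2.3 and mm10 are named per the submitters' processing notes. Every column matched a sample (0 unmatched).

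Counts of 79 member cells and 687 EYFP-positive cells were summed per mouse and tested with edgeR 4.0.16 (quasi-likelihood, TMM, filterByExpr, two-sided, Benjamini-Hochberg adjustment over all genes tested), in R 4.3.3. Both arms come from the same mouse, so mouse was a block. CPM are summed counts scaled to all UMIs of the same cells. Member sums of 83312 to 221304 UMIs per mouse put a count of 3, the limit that 0 allows, at 13.6 to 36.0 CPM. Single hormones were also compared on log2(CPM + 10) by exact paired permutation. DESeq2 1.42.0 and other filters, thresholds and cell sets were alternatives. No doublet caller was run.

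The members and 26 gene lists were chosen with earlier results of these data known. Named genes were the list genes, and up to 10 per direction with the largest difference among those with adjusted p under 0.05, at least 20 CPM in the higher arm and 1 direction in every mouse. A few others are named for their values after these were seen. In simulated data with 4-fold changes the EYFP test recovered 52 of 191 changed genes with 2 false calls, over 9669 genes. The time test recovered 0 of 157 and the interaction test 0 of 194. The simulated sums had a dispersion of 0.2 for every gene, with no single cells and no differences between mice. Their false calls are therefore not an error rate for the real sums, where a few cells can carry a gene. Gene positions come from the GENCODE annotation of GRCm38. Some results, among them those of the alpha and epsilon gene lists as wholes, are not reported here.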

Additional observations from a re-analysis of the deposited data

Results flagged for a closer look

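Of the 32 genes called by edgeR's test of the interaction, 7 belong to the gene lists and had at least 3 member UMIs in every mouse. In these the difference between member and EYFP-positive cells of the same rule differed between 2 and 4 weeks. On the log2 scale the 4-week difference exceeded the 2-week difference by 2.98 for Ghrl, 3.02 for Gkn3 (a gastric gland gene), 2.92 for Muc6, 1.21 for Pnlip (pancreatic lipase), 1.06 for Try4 (a trypsinogen) and 1.31 for Ttr. For Sst the difference was -0.95, and -0.76 without the 2 insulin cells. None of the 7 passed with bias-adjusted deviances, where the adjusted p was 0.0969 for Ghrl and Muc6, 0.764 for Gkn3 and 0.992 for the other 4. With cells rich in acinar enzymes or SPEM genes left out, Ghrl came to 0.54 and Gkn3 to 1.12, and Try4 (-0.42) and Pnlip (-0.72) turned sign. Gkn3, Try4 and Pnlip are in the lists by which those cells were left out. Without cells holding markers of other types, Gkn3 (-1.70) and Ttr (-0.06) turned sign. Among cells under 10000 UMIs, Sst turned sign to 1.44. Each of these fits held only mouse 2 at 2 weeks. With at least 1 UMI of each chromogranin, a fit of all 4 mice, Try4 (-0.28) and Pnlip (-0.98) turned sign. Ghrl and Muc6 kept their sign in every alternative, but Muc6 came to 0.23 without cells holding markers of other types. In edgeR fits of all 4 mice, Ghrl lost its call with at least 1 UMI of each chromogranin (adjusted p = 0.857). It also did so without the 2 insulin cells (adjusted p = 0.343), while Muc6 kept its call in both. Without its deepest Ghrl cell, 4-week mouse 1 went from 36601 to 3914 CPM of Ghrl and from 918 to 359 CPM of Muc6.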

How the results depend on the processing

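Alternatives on the 2 insulin cells, on cells under 10000 UMIs, on cells rich in acinar or SPEM genes, on thinning before the rule and on bias-adjusted deviances were chosen after seeing the data. The EYFP contrast called 158 genes. It called 73 with DESeq2, 41 with bias-adjusted deviances, 384 without the filter, 26 with at least 5 UMIs of each chromogranin, 74 without cells rich in acinar or SPEM genes, 4 with thinned cells, 13 without cells holding markers of other types, 3 under 10000 UMIs, 4 with the rule after thinning and 306 against cells with at least 5 EYFP UMIs. Both arms come from the same mouse, and with no replicate block, so without this pairing, 16 genes were called (8 higher, 8 lower). Leaving out 1 mouse gave 71 to 124, with 71 without 4-week mouse 2 and 72 without 2-week mouse 1.

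The time test called 0. It called 5 with DESeq2, 42 without the filter, 8 with at least 1 UMI, 3 without acinar or SPEM-rich cells, 15 thinned, 26 without cells of other types, 40 under 10000 UMIs, 2 without the insulin cells and 6 to 45 without 1 mouse. The interaction called 32. It called 3 with DESeq2, 2 with bias-adjusted deviances, 18 with at least 3 UMIs, 15 without acinar or SPEM-rich cells, 8 thinned, 21 and 10 against at least 2 and 5 EYFP UMIs, and 19 to 51 without 1 mouse. With fewer than 10 member cells, 2-week mouse 1 dropped out of the fits on thinned cells, cells under 10000 UMIs, cells without other types' markers and cells not rich in acinar or SPEM genes, and both 2-week mice dropped out at the threshold of 5 and with the rule after thinning; a lone mouse is then assumed to vary like the others. For the time and interaction tests the threshold of 5 and the rule after thinning were therefore not run.

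Directions of the EYFP contrast turned as follows (log2 difference). Sst was -0.28 at the threshold of 5 and -2.05 with the rule after thinning. Cpb1 was 0.79 without acinar or SPEM-rich cells, 0.00066 under 10000 UMIs and 0.78 with the rule after thinning. Try5 was 0.75 without acinar or SPEM-rich cells and 0.17, Tac1 0.0035, Krt18 0.53 and Syt7 -0.036 with the rule after thinning. Cpb1 and Try5 are among the enzymes by which acinar-rich cells were left out. The cause of these turns was not tested. Of 22 named genes' 408 values, 10 reversed, 134 lost the threshold and 264 kept it. The share of insulin cells is 0 by construction without the 2 insulin cells. The rise in the member share was 0.148 to 0.263 percentage points without 1 mouse. Shallow member sums limit genes under about 36.0 CPM.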
